A study of Mus musculus with 2 samples.

Results

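G-run simple repeats are tandem repeats of a short unit in which, once the unit is read head to tail, at least 3 G or at least 3 C stand next to each other. They were taken from tables of sequencing reads per repeat type for the serine 31 phosphorylated form of histone H3.3 (H3.3S31ph) in mitotic mouse embryonic stem (ES) cells. The choice used the name of each row alone, which gives the unit, and no read count. It was made with earlier results of these data known. The telomeric hexamer and the 7 listed units that differ from it by 1 base were left out. This gave 19 of the 161 simple repeats and of the 952 repeat types in the tables.

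The study compared 1 H3.3S31ph chromatin immunoprecipitation sequencing (ChIP-seq) sample with 1 input sample of the same sheared chromatin that saw no antibody. Both came from wild-type ES cells of strain 129S1/SvImJ below passage 20, arrested for 12 hours by 9 µM RO-3306, which blocks the cell-cycle kinase CDK1, and collected in mitosis 11 hours after its removal. Both libraries were read in 2 sequencing lanes, which are runs of the same libraries and not replicates. The tables held 6204712 and 6030765 ChIP reads in lanes 1 and 2, against 4467116 and 4389635 input reads. With 1 sample a group there is no replicate check and no test, so each interval below is a 95% interval of counting error. The libraries carry no described molecular identifiers, so amplified copies count as reads and the intervals leave that out. The cells were a bulk population whose share in mitosis no source used here gives, so fewer marked cells and less mark per cell cannot be told apart. The tables list repeats only and hold no marker of the ES cell state.

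H3.3 is the histone H3 variant that can be placed in chromatin outside DNA replication, and serine 31 is absent from the canonical H3 histones. Phosphorylation of this serine is a mark of mitosis. The ATRX and DAXX proteins place H3.3 at telomeres and at other repetitive DNA, and ATRX is known to bind G-rich tandem repeats. Strands with repeated runs of G can fold into G-quadruplexes, stacked structures held together by G bases, which is why G-run repeats are a natural comparison for the telomere.

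Each unit is called by the row name that the tables give. Among the 161 simple repeats 0 pairs of rows were rotations or complements of each other, so each double-stranded repeat has 1 row. In the 18 units other than (G)n the runs were separated by 1 to 3 bases, so each has the spacing of a G-quadruplex pattern on one strand, and this feature does not separate the units from one another.

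The G-run repeats as a whole held similar shares of the ChIP reads and of the input reads in the tables. They held 6342 ChIP reads, 0.0518% of the ChIP reads in the tables, against 4184 input reads, 0.0472% of the input reads. The ratio, which is a share of ChIP reads over the share of input reads, was 1.10 (1.06 to 1.14). Other scales between the libraries, given at the end, put this pool between 1.05 and 1.36. On the scale of the table totals, a pair of units, (CCCCAG)n and (CCCCG)n, carried the excess over 1. Without both, an alternative chosen after their values were seen, the other 17 had a ratio of 0.975 (0.934 to 1.02). The telomeric row (CCCTAA)n, given for scale, had a ratio of 14.4, and the median over the 704 repeat types with at least 100 input reads was 0.805. The interval of the other 17 G-run units lies above that median, so they were near 1 but not near the median repeat. The 7 units near the telomeric one held 323 ChIP reads and 272 input reads together, and their ratio was 0.860 (0.729 to 1.01), at 1.04 in lane 1 and 0.732 (0.584 to 0.918) in lane 2. Of these, (TAGGG)n was at 2.04 (1.30 to 3.29) over 27 input reads, and the other 6 ranged from 0.607 to 0.860.

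Of the 19 units, 13 had at least 100 input reads over both lanes, a minimum that does not look at the ChIP, and are described one by one. Their median ratio was 0.998, against 0.805 over all repeat types at this depth. The interval lay above 1 for 2 of the 13, against 7.81% of all 704 repeat types, and below 1 for 1, against 79.5%. The other 10 intervals included 1, against 12.6% of all repeat types. Read against the median repeat, 10 of the 13 had an interval above it, against 27.3% of all repeat types, and 0 had one below it, against 19.2%. A ratio of at least 1.5 was reached by 2 of the 13, against 1.99%.

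**Figure D1:**
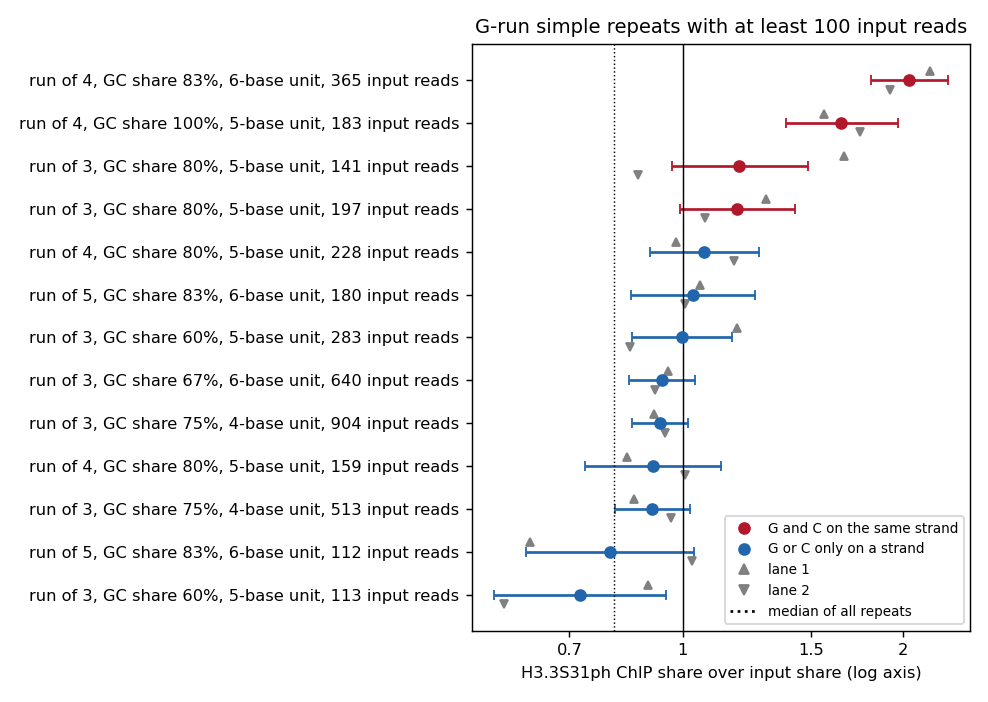
Ratio of the H3.3S31ph ChIP share to the input share (log axis) for the 13 G-run units with at least 100 input reads. Circles and bars are both lanes summed with 95% counting intervals, triangles are single lanes, the solid line is 1 and the dotted line the median repeat at 0.805. The top 2 units lie at 2.04 and 1.65, and all others at 1.20 or lower.

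The units with a run of 4 spread most widely. (CCCCAG)n had 508 and 521 ChIP reads in lanes 1 and 2, against 168 and 197 input reads. Its ratio was 2.04 (1.81 to 2.31), the highest of the 13 and the 8th highest of all 704 repeat types. It held 8.72% of the input reads of the G-run repeats, yet 16.2% of their ChIP reads. (CCCCG)n, which is built of C and G alone and holds the dinucleotide CG, had 215 and 202 ChIP reads, against 99 and 84 input reads. Its ratio was 1.65 (1.38 to 1.97), the 10th highest of all. Both units lay above 1 in each lane, at 2.18 and 1.92 for (CCCCAG)n and at 1.56 and 1.75 for (CCCCG)n.

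The remaining units with a run of 4 did not follow. (CACCC)n had 166 and 171 ChIP reads, against 122 and 106 input reads, and a ratio of 1.07 (0.902 to 1.27). (GGGGA)n, with purines alone on one strand, had 106 and 94 ChIP reads, against 91 and 68 input reads, and a ratio of 0.911 (0.736 to 1.13). Both intervals include 1. The ratio of (CCCCAG)n was 1.91 times that of (CACCC)n (1.55 to 2.34), and that of (CCCCG)n was 1.54 times (1.21 to 1.96). These units share the run of 4 and differ in what stands between the runs.

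The units with a run of 5 were not separable from a ratio of 1 where reads were many. (TGGGGG)n had 138 and 119 ChIP reads, against 94 and 86 input reads, and a ratio of 1.03 (0.851 to 1.26). (AGGGGG)n had 55 and 68 ChIP reads, against 64 and 48 input reads, and a ratio of 0.795 (0.610 to 1.04). Both intervals include 1. That of (TGGGGG)n lies above the median repeat of 0.805, and that of (AGGGGG)n includes it. The ratio of (AGGGGG)n was 0.769 times that of (TGGGGG)n (0.559 to 1.06), so these 2 units were not separable at this depth. Although (TGGGGG)n has the GC share of (CCCCAG)n and a longer run, the ratio of (CCCCAG)n was 1.97 times as high (1.58 to 2.47).

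The most abundant G-run repeats have a run of 3, and their ratios lay just under 1. (GGGA)n had 609 and 553 ChIP reads, against 479 and 425 input reads, and a ratio of 0.930 (0.852 to 1.02). (GGGAGA)n had 413 and 415 ChIP reads, against 311 and 329 input reads, and a ratio of 0.936 (0.844 to 1.04). (CCCA)n had 317 and 327 ChIP reads, against 266 and 247 input reads, and a ratio of 0.909 (0.808 to 1.02). All 3 intervals include 1 and lie above the median repeat, which the units exceeded by 0.21, 0.22 and 0.18 on the log2 scale.

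(GGGAA)n had 206 and 184 ChIP reads, against 125 and 158 input reads, and a ratio of 0.998 (0.854 to 1.17). (CAGGG)n had 177 and 146 ChIP reads, against 98 and 99 input reads, and a ratio of 1.19 (0.991 to 1.42). (CAGCC)n had 134 and 99 ChIP reads, against 58 and 83 input reads, and a ratio of 1.20 (0.966 to 1.49). These 3 intervals include 1. (CATCC)n had 66 and 47 ChIP reads, against 53 and 60 input reads. Its ratio of 0.724 (0.553 to 0.948) was the lowest of the 13 and the only one with an interval below 1, and that interval included the median repeat.

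The other 6 units had fewer than 100 input reads each and were pooled. They held 286 ChIP reads, against 166 input reads, which is 1.25 as a ratio (1.03 to 1.52). The pool lay above 1 by a narrow margin, at 1.19 (0.911 to 1.57) in lane 1 and 1.31 (0.984 to 1.76) in lane 2. (CGGG)n gave most of these reads in both samples, with 87 and 68 ChIP reads against 52 and 44 input reads, and a ratio of 1.17 (0.900 to 1.52). (CCGGG)n had 54 ChIP and 31 input reads, for a ratio of 1.26 (0.796 to 2.03). (G)n, the run of G with no other base, had 36 ChIP and 19 input reads, for a ratio of 1.37 (0.766 to 2.53). None of these 3 units was separable from 1. (CGGGGG)n had 25 ChIP and 9 input reads, for a ratio of 2.01 (0.908 to 4.90), and (CGGGA)n had 15 ChIP and 8 input reads, for a ratio of 1.36 (0.540 to 3.70). (CCCGA)n, the last unit, had 1 ChIP and 3 input reads, for a ratio of 0.241 (0.0046 to 3.01). At these depths a difference from a ratio of 1 was not detectable for any single one of the 6. The intervals of (CGGG)n and (CGGGGG)n lay above the median repeat of 0.805, and those of the others included it.

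Over all GC shares together, the ratio did not go up step by step with the length of the run. Pooled over units, it was 0.968 (0.923 to 1.02) for 11 units with a run of 3, 1.54 (1.42 to 1.66) for 4 units with a run of 4 and 0.974 (0.837 to 1.13) for 3 units with a run of 5. The single unit (G)n was at 1.37. The run of 4 stood 1.59 times above the run of 3 (1.45 to 1.74). The run of 5 stood at 1.01 times the run of 3 (0.860 to 1.18) and at 0.634 times the run of 4 (0.536 to 0.751). The high value at 4 rested on (CCCCAG)n and (CCCCG)n, since without them the class was at 1.00 (0.880 to 1.15), which was 1.04 times the run of 3 (0.903 to 1.19). Just outside the rule, 43 simple repeats whose longest run is 2 had a pooled ratio of 0.930 (0.913 to 0.947), and the run of 3 stood at 1.04 times that (0.989 to 1.10). Across the 13 units, Spearman's rho between run length and the log2 ratio was 0.13. The points are units from the same 2 libraries and not independent, and this is a description.

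The pooled ratio was higher where the unit held more G and C. It was 0.930 (0.857 to 1.01) for 3 units with a GC share of 60 to under 75%, 1.11 (1.06 to 1.17) for 11 units of 75 to under 100% and 1.47 (1.29 to 1.68) for 5 units made of G and C alone. No G-run unit had a GC share under 60%. The class of 100% stood 1.58 times above that of 60 to under 75% (1.36 to 1.84). Without (CCCCAG)n and (CCCCG)n this was 1.36 times (1.10 to 1.68), at 1.18 (0.877 to 1.58) in lane 1 and 1.57 (1.15 to 2.15) in lane 2. Without them the middle class was at 0.976 (0.926 to 1.03), which was 1.05 times the lowest (0.952 to 1.16). Spearman's rho of the log2 ratio with GC share was 0.52 over the 13 units and 0.28 over 11 without this pair. Over 64 simple repeats without a G run, which span all GC shares, it was 0.78, but over the 15 of them at 60% GC or more, the range of the G-run units, it was 0.17. The part of base composition itself in these ratios was not tested.

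**Figure D2:**
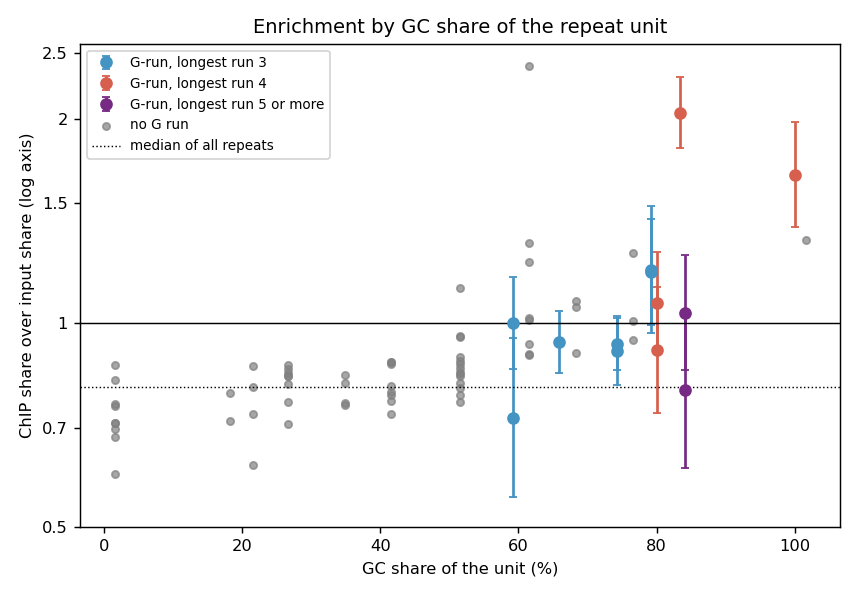
Ratio of the ChIP share to the input share (log axis) against the GC share of the unit (%), for G-run units coloured by their longest run with 95% counting intervals, and for the 64 simple repeats without a G run (grey), all with at least 100 input reads. Points are shifted sideways by up to 1.6 percentage points to stay visible, and the solid and dotted lines are 1 and the median repeat. At GC shares of 80 to 83.3% the G-run units span 0.795 to 2.04.

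**Figure D3:**
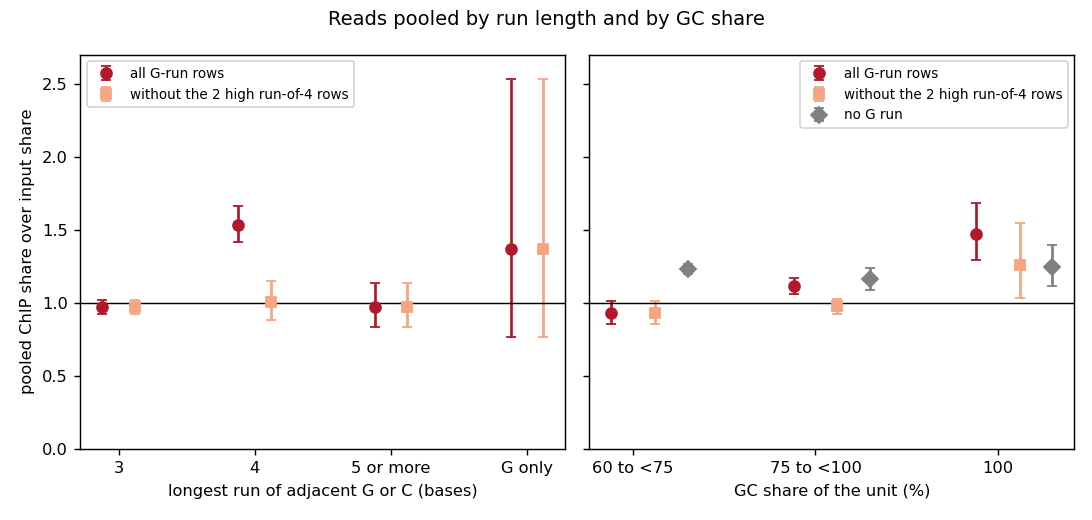
Ratio from reads pooled over G-run units by longest run (left) and by GC share (right), with 95% counting intervals, for all units and without (CCCCAG)n and (CCCCG)n, beside pooled simple repeats without a G run (grey). The run of 4 is at 1.54 with both units and at 1.00 without them.

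Simple repeats without a G run and with a like GC share were not lower than the G-run repeats as a rule. At 60 to under 75% GC, 3 G-run units had a ratio of 0.930, against 1.23 for 31 units without a G run, a quotient of 0.756 (0.694 to 0.823). The pool without a G run held (CACAG)n, with a ratio of 2.39 over 1335 input reads. Without (CACAG)n, chosen after its value was seen, the pool was at 1.03 and the quotient at 0.902 (0.827 to 0.983), with 0.964 in lane 1 and 0.845 in lane 2. At 75 to under 100% GC, 11 G-run units had a ratio of 1.11, against 1.16 for 14 units without a G run, a quotient of 0.960 (0.888 to 1.04). Among units of G and C alone, 5 with a G run had a ratio of 1.47, against 1.24 for 4 without one, a quotient of 1.18 (0.996 to 1.40). The last 2 quotients include 1. They turn to 0.841 (0.775 to 0.913) and 1.01 (0.808 to 1.27) without (CCCCAG)n and (CCCCG)n. These units were chosen after their values were seen and left out on the G-run side alone. That could only lower the quotients, so it shows how far they rest on this pair and nothing more. Of 15 repeats without a G run at 60% GC or more, 6 had an interval above 1 and 9 one above the median repeat, with a median ratio of 1.02 beside the 0.998 of the G-run units.

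Units of the same length and GC share give the closest pairs. Among 4-base units of 75% GC, (GGGA)n and (CCCA)n together had a ratio of 0.923 (0.860 to 0.990), against 1.14 (1.07 to 1.22) for 6 units without a G run. The largest of those was (CAGG)n, with 760 and 728 ChIP reads against 394 and 455 input reads and a ratio of 1.27 (1.17 to 1.38). Among 5-base units of 60% GC, 2 G-run units had 0.919 (0.804 to 1.05), against 1.64 (1.57 to 1.71) for 27 without a G run, or 1.05 (0.988 to 1.12) for these without (CACAG)n. Among 5-base units of 80% GC, 6 G-run units had 1.09 (0.993 to 1.20), against 1.39 (1.08 to 1.79) for 8 without a G run that held 99 input reads in all. Among 5-base units of G and C alone, 2 G-run units had 1.59 (1.35 to 1.88), against 0.970 (0.655 to 1.45) for (CCGCG)n with its 47 input reads. Of the 471 ChIP reads of these G-run units, (CCCCG)n gave 417. Among 4-base units of G and C alone, (CGGG)n had 1.17 (0.900 to 1.52), against 0.434 (0.0674 to 2.23) for (CCGG)n with its 5 input reads. The G-run units had the lower ratio in the first 3 of these settings and the higher one in the other 2. The intervals were apart only in the first setting, and in the second while (CACAG)n was kept. Overlap of the intervals does not show that the ratios are alike, and no interval of a quotient is given for these settings. GC_rich, a row for stretches rich in G and C without a fixed unit, had a ratio of 1.31 (1.24 to 1.40), between (CAGCC)n and (CCCCG)n.

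The G-run units also differed by whether G and C occur on the same strand of the unit. This grouping was made with the values known. The 9 units that hold both, such as (CCCCAG)n or (CGGG)n, had a pooled ratio of 1.58 (1.47 to 1.70). The 10 units with only G or only C on a strand, such as (GGGA)n, (CACCC)n and (TGGGGG)n, had 0.940 (0.897 to 0.985). With at least 100 input reads, the 4 units of the first kind had the 4 highest ratios, from 1.19 to 2.04, and the 9 of the second kind ranged from 0.724 to 1.07. The quotient of the pools was 1.68 (1.54 to 1.83). Without (CCCCAG)n and (CCCCG)n it was 1.28 (1.13 to 1.45), with 1.46 (1.23 to 1.74) in lane 1 and 1.11 (0.929 to 1.32) in lane 2, so lane 2 alone does not separate the rest. All 6 units with purines alone on one strand are of the second kind and had 0.937 (0.885 to 0.992).

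The units with G and C on a strand all have a GC share of 80% or more, and the others one of 60 to 83.3% apart from (G)n. The part of GC share in the difference was not tested. At GC shares of 80 to under 100%, 5 such units had a ratio of 1.62 (1.49 to 1.78), against 0.978 (0.884 to 1.08) for 4 units with only one of the bases on a strand. Without (CCCCAG)n the 5 become 4 at 1.19 (1.04 to 1.36). The lanes then went opposite ways, with 1.43 against 0.902 in lane 1, a quotient of 1.59 (1.26 to 2.00), and 0.976 against 1.07 in lane 2, a quotient of 0.913 (0.720 to 1.16). Over all G-run units, the 6 with the dinucleotide CG stood 1.37 times above the 13 without it (1.20 to 1.58), and all 6 hold G and C on a strand. Within the units with both bases on a strand, CG did not separate units further when lanes were summed. That comparison is mostly one of the 2 high units, since (CCCCG)n gave 417 of 667 ChIP reads with CG and (CCCCAG)n 1029 of 1585 without it. Among units with G and C on a strand, the 6 with CG had 1.46 (1.28 to 1.67), against 1.63 (1.49 to 1.79) for the 3 without it, a quotient of 0.896 (0.765 to 1.05), with 0.776 (0.622 to 0.968) in lane 1 and 1.04 (0.823 to 1.30) in lane 2. In simple repeats without a G run at 60% GC or more, the 43 units with both bases on a strand had 1.43, against 1.01 for 6 with one of them. Without (CACAG)n the quotient of these pools was 1.12 (1.07 to 1.18), with 1.13 in lane 1 and 1.12 in lane 2. These pools are not matched for GC share either. Without a run of 3, a unit with only one of the bases on a strand cannot exceed 66.7% GC, while units with both reach 100%. The part of GC share here was not tested.

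**Figure D4:**
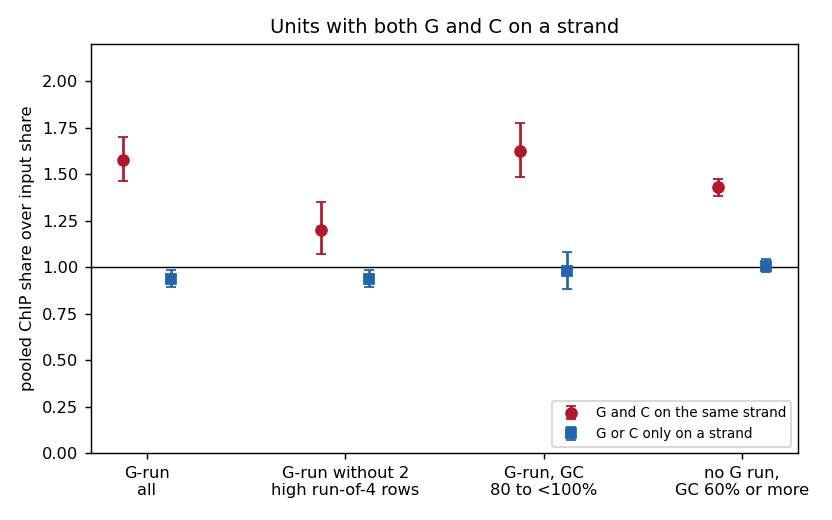
Pooled ratio of the ChIP share to the input share, with 95% counting intervals, for units with G and C on the same strand (red) and units with only one of them on a strand (blue). From left to right stand all G-run units, those without (CCCCAG)n and (CCCCG)n, those of 80 to under 100% GC and simple repeats without a G run of at least 60% GC. The red points lie at 1.58, 1.20, 1.62 and 1.43, above the blue ones. The third is 1.19 without (CCCCAG)n, and then below the blue one in lane 2, and the last is 1.13 without (CACAG)n.

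The strand that the row name gives did not separate the units beyond the 2 high ones. The 7 units named by their C strand had a pooled ratio of 1.30 (1.22 to 1.38), against 0.979 (0.931 to 1.03) for the 12 named by their G strand. Without (CCCCAG)n and (CCCCG)n, both named by the C strand, the quotient was 0.984 (0.893 to 1.08). By unit length the pooled ratio was 0.938 (0.877 to 1.00) for 4 bases, 1.12 (1.05 to 1.20) for 5 bases and 1.25 (1.17 to 1.34) for 6 bases. Without (CCCCAG)n the 6-base units were at 0.948 (0.871 to 1.03), so the rise with length rested on it.

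The lanes gave like values for the pool of all units and unlike ones for some single units. Over the 13 units, Spearman's rho between the ratios of the lanes was 0.29, and Pearson's r of their log2 values was 0.56. All G-run units together had 1.11 (1.05 to 1.17) in lane 1 and 1.09 (1.03 to 1.15) in lane 2. The quotient of the lane ratios had an interval that excluded 1 for 2 of the 13 units, against 5.97% of all 704 repeat types. These were (CAGCC)n, at 1.66 in lane 1 and 0.868 in lane 2 over 141 input reads, and (GGGAA)n, at 1.19 and 0.848 over 283 input reads. (AGGGGG)n had 0.619 and 1.03. Apart from (CCCCAG)n and (CCCCG)n, no unit with at least 100 input reads was thus far from 1 in both lanes to the same side by more than counting error.

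The authors' deposited table gives a conservative log2 value per lane, which is 0 where the authors' interval spans 0. In the authors' deposited table it was above 0 for 7 of the 19 G-run units in lane 1 and for 5 in lane 2, against 13.3% and 12.9% of all 952 rows. Only (CCCCAG)n and (CCCCG)n were above 0 in both lanes. It was below 0 for (AGGGGG)n in lane 1 and for (CATCC)n in lane 2, against 40.8% and 40.2% of all rows.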

How the data were processed

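Per the labels' protocols, chromatin was fixed for 10 min with 0.4% formaldehyde, sheared to about 300 bp and sequenced as single reads of 50 bp. Bowtie 1.0.0 and build mm9 are named in the submitters' processing notes. The rule that gave a read its repeat type, and the treatment of duplicates and of reads matching several types, are not given in the sources used here. Each deposited lane table holds raw counts of reads by repeat type, as well as a log2 ratio with bounds computed by the authors. Tested on the values, this log2 ratio is that of the 2 counts plus 0.5, less a constant per lane (0.31 and 0.29).

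Counts of both lanes were summed. A ratio is a share of all ChIP reads in the tables over the share of all input reads in the tables, with an exact conditional (Clopper-Pearson) 95% interval. Library totals are not in the tables, which cover repeats only, so a strongly enriched repeat lowers the ratio of all others. Quotients of pooled ratios have a 95% interval on the log scale from the 4 counts. Units with at least 100 input reads are given one by one, as are the 5 largest below that, and (CCCGA)n was added outside this rule. The members and lists were chosen with earlier results of these data known. Computation used Python 3.11.15, numpy 2.4.6, scipy 1.17.1 and pandas 2.3.3. Intervals were tested on simulated data with counting error alone, which cannot show how they fare with amplified copies or spread between libraries. Alternatives were single lanes, other scales, read minimums, 1 added read, medians over rows and pools without large units. Sequences of the repeats in tandem are not reported here.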

Additional observations from a re-analysis of the deposited data

How the results depend on the processing

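The scale between the libraries moved most values, since it multiplies every ratio by 1 factor, and quotients of pools do not depend on it. With every ratio scaled to the median repeat, the pooled ratio was 1.36 for all G-run units, 1.20, 1.91 and 1.21 for runs of 3, 4 and 5 or more, and 1.16, 1.38 and 1.83 for the 3 GC classes from low to high. When scaled to old repeats (65 rows) these were 1.35, then 1.19, 1.88 and 1.19, then 1.14, 1.37 and 1.81. On the deposited scale they were 1.23 for all, 1.09 and 1.73 for runs of 3 and 4, and 1.05 and 1.25 for the lower GC classes. Without the 5 rows with most input reads they were 1.05 for all and 1.06 at 75 to under 100% GC. Units with an interval above 1 numbered 2 in the text, against 7.81% of all 704 repeat types. When scaled to the median repeat they numbered 10, against 27.3%. They numbered 9 when scaled to old repeats, 5 on the deposited scale and 4 in lane 1 alone. Units below 1 numbered 1, against 79.5% of all repeat types, and 0 when scaled to the median repeat, against 19.2%. They also numbered 0 when scaled to old repeats and on the deposited scale, and 5 without the most abundant rows. Those above the median repeat numbered 10, against 27.3%, and 6 in lane 2 alone. A change of scale moves all repeat types. Where no share of all repeat types stands beside a count here, that count cannot be read as particular to the G-run units.

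Pools depended on single units, with the ratios here on the scale of the table totals. The median over units turned the ratio of all G-run units to 0.998, and leaving out (CCCCAG)n and (CCCCG)n, chosen after seeing the data, turned it to 0.975 and that of 75 to under 100% GC to 0.976. That alternative gave 1.00 for the run of 4, 1.26 at 100% GC and a quotient of 0.841 against repeats without a G run at 75 to under 100% GC. Without the unit with most input reads, the ratio was 1.14 for all, 1.21 for the run of 4, 1.20 at 75 to under 100% GC and 1.26 at 100% GC. Medians over units gave 1.36 for the run of 4, 1.03 at 75 to under 100% GC and a quotient of 0.922 at 60 to under 75% GC, where leaving out (CACAG)n, also chosen after seeing the data, gave 0.902. Within units of the same length the quotients were 0.561, 0.803 and 1.71 from low to high GC. Each of these alternatives leaves out or reweights units, and beyond that the cause was not tested. No G-run unit had 1000 input reads, so that minimum gave no value, and no G-run unit fell in the 50 to under 60% class. No paired analysis was possible because each group has 1 sample. Among values of the 13 single units, 26 of 91 moved beyond their interval, 22 of them under a change of scale. Depth limits the 6 smallest units, whose intervals all include 1.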
